A study of Mus musculus with 10 samples.

Results

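The messenger RNAs of 8 genes of programmed cell death, Casp1, Casp2, Casp4, Casp6, Casp8, Casp9, Apaf1 and Gsdmd, were examined among the 55359 genes of the deposited expression table. They were chosen by name as apoptotic and inflammatory caspases with the scaffold Apaf1 and the pore protein Gsdmd, with earlier results of these data known. All 8 passed the filter on low values. RNA was sequenced from bone marrow Lin- cells, the fraction left after a depletion kit takes out cells bearing markers of mature lineages. The 2 groups were 5 Dhx9f/f mice (WT), whose Dhx9 gene is flanked by recombination sites, and 5 Dhx9f/f;MX1 mice (cKO), which also carry Cre recombinase. Cre is driven by the Mx1 promoter, which responds to interferon in many tissues, so deletion is not limited to blood cells, and it is induced with repeated doses of the double-stranded RNA mimic poly(I:C). The sources used here do not state the age of the sequenced mice or whether the sequenced WT mice were given poly(I:C), so genotype and poly(I:C) cannot be told apart. Dhx9 itself went against the labels, at 140 ± 12 FPKM in the cKO and 69.7 ± 2.84 FPKM in the WT group (SD, n = 5 each), so groups are named by their labels throughout. In other samples, bone marrow cells of Dhx9f/f;MX1 mice, the paper reported reduced Dhx9 RNA and protein. FPKM counts sequenced fragments relative to the length of the gene and the depth of the library.

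Caspases are cysteine proteases made as inactive precursors and switched on in large protein platforms. In apoptosis, cytochrome c leaking from mitochondria assembles Apaf1 into the apoptosome, which activates Casp9, while death receptors activate Casp8, and both initiators then cut executioner caspases. In pyroptosis, inflammasomes activate Casp1 and cytosolic bacterial lipopolysaccharide activates Casp4, and either protease cuts Gsdmd, whose freed end opens pores in the plasma membrane. Inflammasomes are best known from monocytes, macrophages and neutrophils.

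Compared with WT, 3 of the 8 members were called lower in the group with the cKO label and 0 were called higher. A call was an adjusted p under 0.05 (limma with Benjamini-Hochberg adjustment over all 18742 genes tested) together with a fold change of at least 2. Among all genes tested 16.8% were called lower and 4.6% higher. The called members were Casp1, Gsdmd and Casp8. On adjusted p alone 6 members were lower, where 28.3% of all genes were, and 0 were higher even at an unadjusted p under 0.05. For 5 members, every cKO library was below every WT library, as was the case for 21.6% of all genes. The median log2 fold change of the members was -0.82, against -0.11 over all genes tested. In bulk RNA, fewer cells that express a gene and less of its RNA per cell cannot be told apart.

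**Figure D1:**
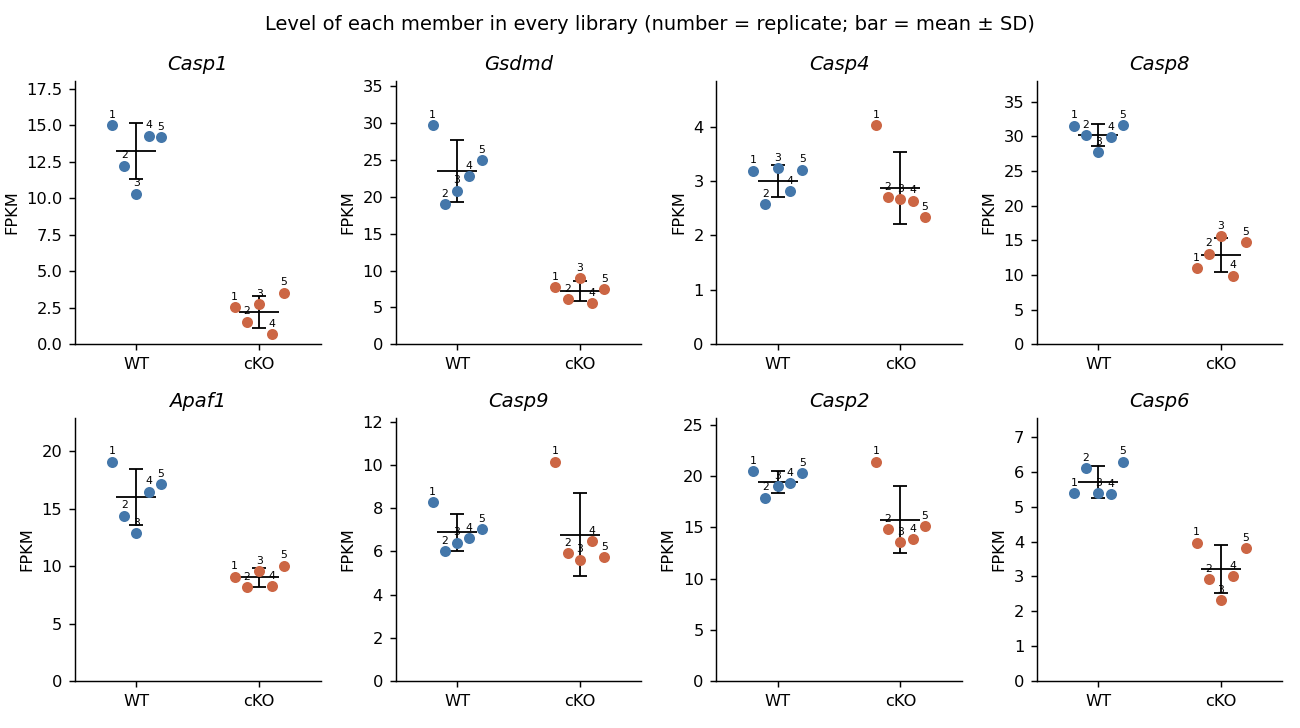
Level of each of the 8 members in FPKM (vertical axes, from 0) in the 5 WT and 5 cKO libraries, numbered by replicate, with the mean and SD of each group. The groups are apart for Casp1, Gsdmd, Casp8, Apaf1 and Casp6 and overlap for Casp4, Casp9 and Casp2, for which library cKO 1 is the highest of its group.

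The inflammatory members did not move together. Casp1, the protease that matures interleukin precursors, is on chromosome 9 of GRCm39 from 5298508 to 5307290, plus strand, with 10 exons. Its neighbour Casp4, from 5308828 to 5336783 on the same strand with 9 exons, starts 1537 bp after Casp1 ends with no annotated gene between them. The 250 bases before each annotated gene start are shown because these adjacent genes differed in their response, with each CG dinucleotide, the letters that DNA methylation acts on, in capitals. The window of Casp1 is chr9:5298258-5298507 and that of Casp4 is chr9:5308578-5308827, both read from GRCm39 on the plus strand, 5′ to 3′.
Casp1: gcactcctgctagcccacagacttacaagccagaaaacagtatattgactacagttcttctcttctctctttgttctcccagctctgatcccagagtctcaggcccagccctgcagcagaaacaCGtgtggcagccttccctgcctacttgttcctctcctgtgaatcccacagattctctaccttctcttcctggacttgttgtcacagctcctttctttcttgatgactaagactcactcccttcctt
Casp4: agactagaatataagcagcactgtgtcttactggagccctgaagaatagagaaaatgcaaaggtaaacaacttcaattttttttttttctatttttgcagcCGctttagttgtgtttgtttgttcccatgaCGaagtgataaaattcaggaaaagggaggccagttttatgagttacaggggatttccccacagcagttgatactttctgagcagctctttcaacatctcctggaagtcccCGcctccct
The Casp1 window held 1 CG and the Casp4 window held 3, against a median of 6 over the windows of 21757 protein-coding genes. Both windows were below that median, and the part of the CG count in the difference between the neighbours was not tested.

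Levels of Casp1 in WT libraries 1 to 5 were 15.01, 12.23, 10.31, 14.28 and 14.18 FPKM. In cKO libraries 1 to 5 it was at 2.56, 1.54, 2.76, 0.7 and 3.53 FPKM. The highest cKO library thus lay well below the lowest WT library, and library cKO 4 was the lowest of all. The means were 13.2 ± 1.92 and 2.22 ± 1.11 FPKM (SD, n = 5 each), so that the cKO mean was 16.8% of the WT mean. Casp1 fell by 2.68 on the log2(FPKM + 0.1) scale (standard error 0.351, adjusted p = 0.000208, limma), the largest fall among the members, and 2.97% of all genes tested fell further. The exact two-sided permutation test gave p = 0.00794, the smallest that 5 against 5 libraries allow. Even the lowest library held about 32.8 fragments of Casp1, so the depth did not limit this value.

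Casp4 was at 3.19, 2.58, 3.24, 2.82 and 3.21 FPKM in the WT libraries and at 4.03, 2.7, 2.67, 2.64 and 2.34 FPKM in the cKO libraries. The groups overlapped, and library cKO 1 was the highest of all 10. The difference was -0.08 on the log2 scale, with a 95% confidence interval from -0.42 to 0.26 (limma, adjusted p = 0.698), which leaves out a change of 2-fold in either direction. Without library cKO 1 the difference was -0.21 (limma, adjusted p = 0.159). Casp1 and Casp4 share no run of 50 bases in their annotated transcripts, so fragments of one were not open to assignment to the other.

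Gsdmd, on chromosome 15 from 75733974 to 75739257 (plus strand, 11 exons), encodes the protein that both proteases cut. It was at 29.77, 19, 20.84, 22.82 and 25.01 FPKM in WT and at 7.78, 6.07, 9.02, 5.58 and 7.51 FPKM in the cKO libraries. No library of one group reached the other, and library cKO 4 was again the lowest. Gsdmd fell by 1.70 on the log2 scale (standard error 0.152, adjusted p = 4.96e-05, limma), from 23.5 ± 4.16 to 7.19 ± 1.38 FPKM (SD, n = 5 each).

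The ratio of Casp1 to Casp4 was also taken within each library, which takes out any scaling between libraries. The log2 ratio of Casp1 to Casp4 was 2.23, 2.24, 1.67, 2.34 and 2.14 in WT and -0.65, -0.81, 0.05, -1.92 and 0.59 in cKO libraries 1 to 5. Casp1 was thus the more abundant of the pair per length in all 5 WT libraries and in 2 of the 5 cKO libraries. The mean ratio fell by 2.67 on the log2 scale (exact permutation test, two-sided p = 0.00794, adjusted p = 0.0119 over the 3 ratios tested). This ratio was chosen after the values were seen.

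Casp8, the initiator at death receptors and a brake on necroptosis, is on chromosome 1 from 58834375 to 58886665 (plus strand, 9 exons). Its level was 31.54, 30.22, 27.7, 29.84 and 31.65 FPKM in WT and 11.01, 13.07, 15.59, 9.91 and 14.72 FPKM in the cKO libraries. WT libraries lay close together, and each was well above the highest cKO library. Casp8 fell by 1.24 on the log2 scale (standard error 0.119, adjusted p = 5.99e-05, limma), from 30.2 ± 1.60 to 12.9 ± 2.40 FPKM (SD, n = 5 each). It was the most abundant member per length in WT, although its range overlapped that of Gsdmd, the next in order.

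Cflar, which encodes the catalytically inactive relative of Casp8 that tempers its activation, ends 36327 bp upstream of Casp8, with the annotated genes Gm39646, Gm70602 and Gm3841 between them. It was at 8.0 ± 1.19 FPKM in WT and at 3.70 ± 0.557 in cKO (SD, n = 5 each), and fell by 1.09 on the log2 scale (standard error 0.141, adjusted p = 0.000193, limma). Both genes were therefore called lower. The log2 ratio of Casp8 to Cflar was 1.93 ± 0.157 in WT and 1.79 ± 0.272 in cKO (SD, n = 5 each), a difference smaller than the spread of the libraries (exact permutation test, two-sided p = 0.365, adjusted p = 0.365 over 3 ratios). Cflar and Casp8 share no run of 50 bases.

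The members of the apoptosome also differed from each other. Apaf1, the scaffold, spans 27 exons on chromosome 10 from 90825173 to 90918686, minus strand. Its levels were 19.11, 14.41, 12.86, 16.5 and 17.14 FPKM in WT and 9.08, 8.18, 9.54, 8.24 and 10.05 FPKM in the cKO libraries. All 5 cKO libraries were below all 5 WT libraries, and they lay within a narrow range. The log2 difference was -0.81 (standard error 0.112, adjusted p = 0.00027, limma), which passed the adjusted p but not the 2-fold limit.

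Casp9, the initiator that Apaf1 activates, is on chromosome 4 from 141520923 to 141546508 (plus strand, 9 exons). It was at 8.28, 6.02, 6.41, 6.63 and 7.04 FPKM in WT and at 10.16, 5.93, 5.62, 6.46 and 5.72 FPKM in the cKO libraries. The groups overlapped, with library cKO 1 above all others. The log2 difference was -0.05, with a 95% confidence interval from -0.41 to 0.31 (limma, adjusted p = 0.83). Without library cKO 1 it was -0.20 (limma, adjusted p = 0.123).

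Scaffold and protease of the apoptosome thus changed their proportion. The log2 ratio of Apaf1 to Casp9 was 1.21, 1.26, 1, 1.32 and 1.28 in WT libraries 1 to 5 and -0.16, 0.46, 0.76, 0.35 and 0.81 in cKO libraries 1 to 5. The highest cKO ratio lay below the lowest WT ratio, and in library cKO 1 alone Casp9 was the more abundant per length. The mean ratio fell by 0.77 on the log2 scale (exact permutation test, two-sided p = 0.00794, adjusted p = 0.0119 over 3 ratios, chosen after the values were seen). Ratios of RNA say nothing of the protein complex itself.

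**Figure D2:**
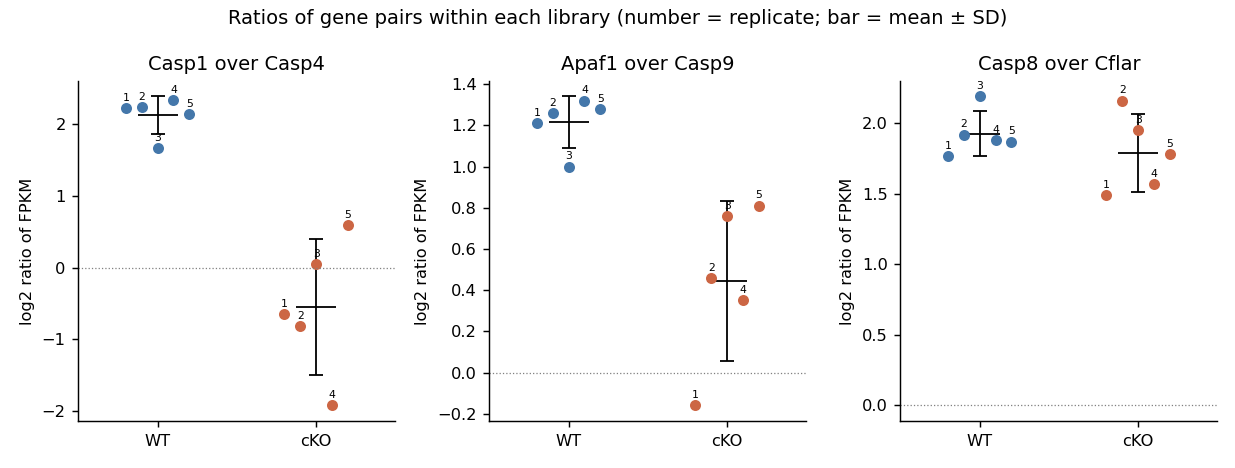
Log2 ratio of FPKM within each library (vertical axes) for Casp1 over Casp4, Apaf1 over Casp9 and Casp8 over Cflar in the 5 WT and 5 cKO libraries, numbered by replicate, with the mean and SD of each group. The groups are apart for the first and the second ratio, with mean differences of -2.67 and -0.77, and overlap for Casp8 over Cflar.

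The windows before the starts of Casp8 and Casp9 are printed to show a CG-poor and a CG-rich start among the members. They are chr1:58834125-58834374 and chr4:141520673-141520922, on the plus strand of GRCm39, with CG in capitals as above.
Casp8: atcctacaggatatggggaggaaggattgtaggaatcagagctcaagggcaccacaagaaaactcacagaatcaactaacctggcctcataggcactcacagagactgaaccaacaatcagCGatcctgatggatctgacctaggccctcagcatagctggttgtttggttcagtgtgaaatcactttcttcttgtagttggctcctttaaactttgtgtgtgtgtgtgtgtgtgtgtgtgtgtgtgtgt
Casp9: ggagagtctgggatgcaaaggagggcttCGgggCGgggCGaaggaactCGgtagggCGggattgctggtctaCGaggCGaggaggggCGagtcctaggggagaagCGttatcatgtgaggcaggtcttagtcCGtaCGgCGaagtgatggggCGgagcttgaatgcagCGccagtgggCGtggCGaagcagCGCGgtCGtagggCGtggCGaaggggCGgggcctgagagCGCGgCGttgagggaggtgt
Casp8 held 1 CG and Casp9 held 25. The 3 members called lower, Casp1, Casp8 and Gsdmd, held 1, 1 and 5 CG, and of the 5 members not called, Casp4 held 3, Casp6 held 11, Casp2 held 17, Casp9 held 25 and Apaf1 held 28. Of all windows 35.7% held at least 10 CG. Gsdmd was close to the median of 6, and Casp4, which was not called, held fewer CG than Gsdmd. The windows were also searched on both strands for an interferon response element (GAAA, any 2 bases and again GAAA), a STAT site (TTCNNNGAA), a PU.1 site (GAGGAAGT), a RUNX site (TGTGGTTT) and a GATA site (AGATAAG). These letters were in 3.44%, 7.82%, 2.13%, 1.54% and 2.75% of all windows and in 0 of the 8 members' windows. That says only that the letters are not in these windows. Annotated exons, of whichever gene, covered 250 bases of the Casp1 window, 209 of the Apaf1 window and 121 of the Casp6 window. They covered 0 bases of the other members' windows.

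Casp2 and Casp6 are the remaining proteases among the members. Casp2, which responds to DNA damage and to extra centrosomes, is on chromosome 6 from 42241918 to 42259443 (plus strand, 11 exons). Its values were 20.52, 17.92, 19.05, 19.33 and 20.32 FPKM in WT and 21.44, 14.83, 13.57, 13.88 and 15.14 FPKM in the cKO libraries. Library cKO 1 was the highest of all 10, while the other cKO libraries were below every WT library. The log2 difference was -0.32 (standard error 0.117, adjusted p = 0.0455, limma), and without library cKO 1 it was -0.43 (adjusted p = 0.000406, limma). The adjusted p was at or above 0.05 in 15 of the 22 fits run, up to 0.267, so this difference was not stable at that threshold.

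Casp6, an executioner that cuts nuclear lamins, is on chromosome 3 from 129695069 to 129707752 (plus strand, 7 exons). It was at 5.4, 6.11, 5.4, 5.37 and 6.3 FPKM in WT and at 3.97, 2.93, 2.33, 3.01 and 3.82 FPKM in the cKO libraries. The groups did not overlap. The log2 difference was -0.83 (standard error 0.147, adjusted p = 0.001, limma), under the 2-fold limit, and it shrank to -0.49 with quantile normalization (adjusted p = 0.0164, limma). Casp6 overlaps Mcub on the other strand, whose mean was 4.25 FPKM in WT and 0.902 in cKO, and since the counting is not stated to use strand, fragments of the pair may not be told apart. The part of Mcub in the Casp6 difference was not tested. Casp9 likewise overlaps Cela2a, listed at 0 in all 10 libraries, and long noncoding RNAs lie opposite Casp1 and Gsdmd and were not analysed here.

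**Figure D3:**
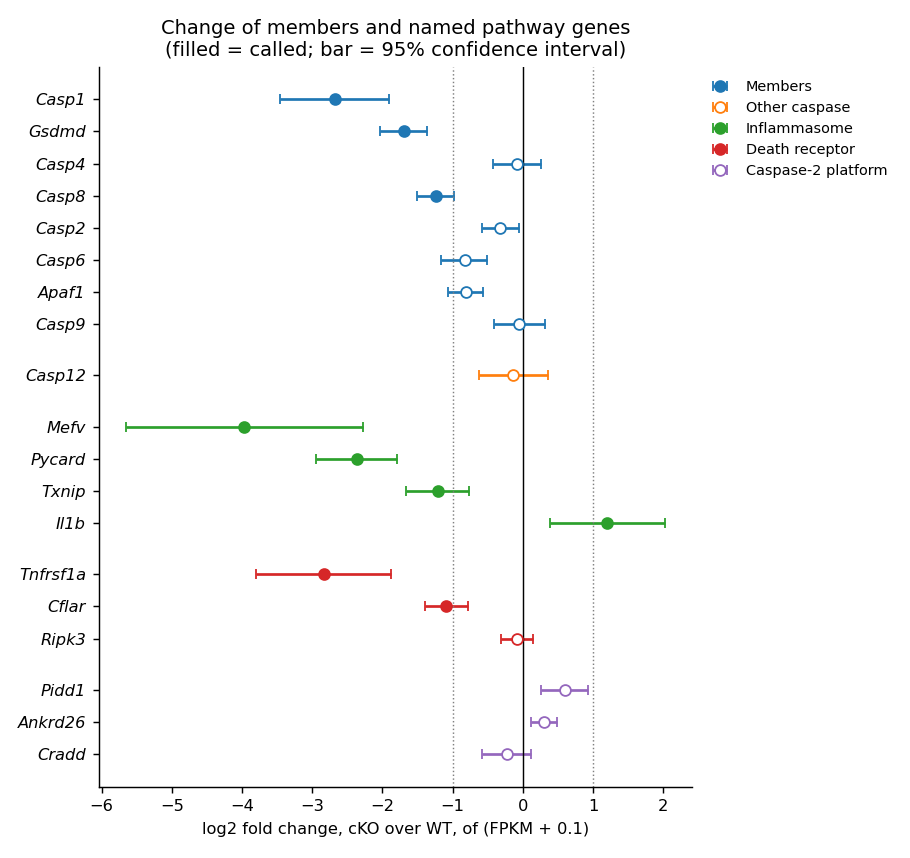
Log2 fold change of (FPKM + 0.1), cKO over WT (horizontal axis), with its 95% confidence interval for the 8 members and 11 further genes of the pathways. Filled points were called, and dotted lines mark the 2-fold limit. Casp1, Gsdmd and Casp8 lie beyond the lower limit, at -2.68, -1.70 and -1.24, while Casp4 and Casp9 lie at -0.08 and -0.05.

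Casp12, an inflammatory caspase that is no member, follows Casp4 on chromosome 9 after 8631 bp. It was at 0.67, 0.66, 0.49, 0.47 and 0.66 FPKM in WT and at 0.7, 0.38, 0.45, 0.49 and 0.64 FPKM in the cKO libraries. The groups overlapped at a low level, with a log2 difference of -0.14 (95% confidence interval from -0.63 to 0.36, limma, adjusted p = 0.645). Of the 3 neighbours on chromosome 9, Casp1 was thus the one that was called. Casp14, a caspase of the skin, was listed at 0 in all 10 libraries.

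The order of the members by level per length differed between the groups. In WT it was Casp8, Gsdmd, Casp2, Apaf1, Casp1, Casp9, Casp6 and Casp4, where neighbours from Casp8 to Casp1 overlapped in range, as did Casp9 and Casp6, while Casp1 was apart from Casp9 and Casp6 from Casp4. In cKO it was Casp2, Casp8, Apaf1, Gsdmd, Casp9, Casp6, Casp4 and Casp1, where the one gap between neighbouring ranges was that between Casp9 and Casp6. Casp1 went from the fifth to the eighth place, and Gsdmd from the second to the fourth.

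**Figure D4:**
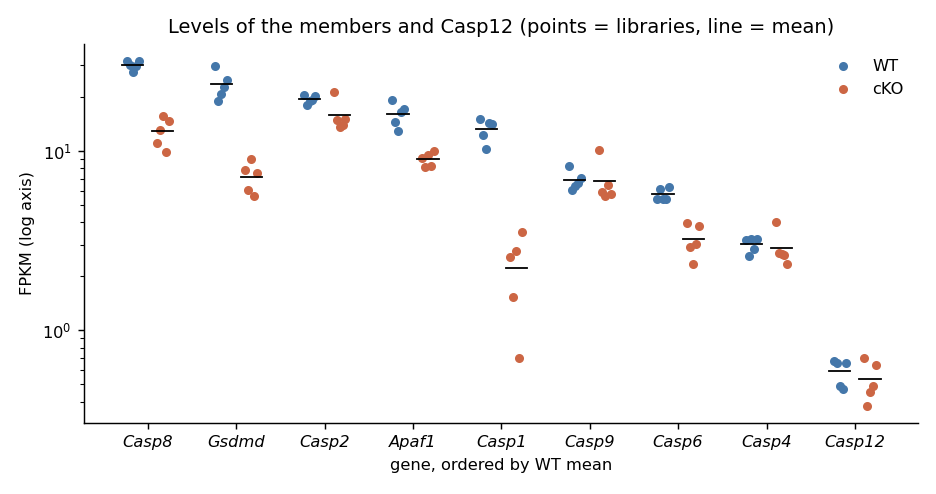
Level in FPKM (vertical axis, logarithmic) of the 8 members and Casp12 in the 5 WT and 5 cKO libraries, with a line at each group mean, ordered by the WT mean. Casp8 is the highest in WT, at a mean of 30.2 FPKM, Casp2 in cKO, at 15.8 FPKM, and Casp1 moves the furthest on this logarithmic axis, from 13.2 to 2.22 FPKM.

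The 3 inflammatory members were set against the 5 apoptotic ones by the mean of their log2(FPKM + 0.1) in each library. Inflammatory minus apoptotic was -0.32, -0.54, -0.41, -0.38 and -0.39 in WT and -1.15, -1.36, -0.90, -1.70 and -1.11 in cKO. The groups did not overlap, and the mean went down by 0.84, from -0.41 ± 0.0818 to -1.24 ± 0.30 (SD, n = 5 each). This is a description and was not tested. It rests on Casp1 and Gsdmd, since Casp4 did not pass the test.

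Xist, the RNA of the inactive X chromosome, was above 1 FPKM in WT libraries 3, 4 and 5 and in no cKO library, so sex was mixed in WT. With only the libraries at or under 1 FPKM, 2 WT and 5 cKO, the log2 fold changes were -2.73 for Casp1, -1.73 for Gsdmd and -1.28 for Casp8, each still called by limma (adjusted p = 0.0143, 0.00705 and 0.00771). A fit with a covariate for Xist above 1 FPKM gave the same 3 log2 fold changes. High Xist occurred in WT alone, so the group difference of that fit rests on the same 2 WT and 5 cKO libraries. It is therefore not a separate check.

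Other genes of the inflammasome route were lower too. Of 21 listed sensors, adaptors and substrates, 20 were tested, with 15 calls of lower and 1 of higher expression and a median log2 fold change of -1.87, against -0.11 over all genes. Of all genes 16.8% were called lower and 4.6% higher. Pycard, the adaptor that joins sensors to Casp1, was at 8.92 ± 1.44 FPKM in WT and 1.74 ± 0.664 in cKO (SD, n = 5 each), and fell by 2.37 on the log2 scale (standard error 0.261, adjusted p = 0.000105, limma). It was named because it binds Casp1, after its values were seen. The largest fall was that of Mefv, which encodes the sensor pyrin, by 3.97 (standard error 0.767, adjusted p = 0.00174, limma). Txnip, a redox protein that can bind the sensor Nlrp3 and the most abundant gene of the list, fell by 1.21 (adjusted p = 0.00075, limma).

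Il1b, the interleukin that Casp1 matures, was the one gene called higher, from 0.570 ± 0.186 to 1.57 ± 0.780 FPKM (SD, n = 5 each), with overlapping groups (log2 fold change 1.2, adjusted p = 0.0216, limma). Its call was lost in 7 of the alternative fits, among them those without WT library 1 and without cKO library 2, 3 or 4, where the adjusted p was up to 0.0562. The sensor Nlrp6 rose further without a call, from 0.552 ± 0.168 to 2.4 ± 1.9 FPKM (SD, n = 5 each). Its groups overlapped (log2 fold change 1.45, adjusted p = 0.101, limma). With quantile normalization, with the replicate block or without cKO library 1, 2 genes of the list were called higher. The other genes called lower were the sensors Nlrp1a, Nlrp1b, Nlrp3, Nlrc4, Naip2, Naip5, Naip6 and Aim2, the cytokines Il1a and Il18, and the guanylate-binding Gbp2 and Gbp5. The groups overlapped for Nlrc4, and Nlrp1b was near the floor, with means of 0.172 FPKM in WT and 0.034 in cKO. Naip2, Naip5 and Naip6 share 9.24% to 25.8% of their runs of 50 bases, so their separate values are uncertain.

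Among 5 further genes of membrane pores and rupture, 2 were tested and 0 were called in either direction by limma, with 1 lower at an unadjusted p under 0.05. Ninj1, which ruptures the membrane after pores form, was at 17.4 ± 3.06 FPKM in WT and 9.79 ± 1.63 in cKO (SD, n = 5 each) with no overlap, a log2 difference of -0.82 (adjusted p = 0.000848, limma) under the 2-fold limit. Gsdme, a related pore protein, differed by -0.24 (limma, adjusted p = 0.247). Gsdma and Pjvk were under the filter, and Gsdmc was listed at 0 throughout. Of the listed pore proteins with a gasdermin fold, Gsdmd was thus the most abundant per length in every library of both groups.

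Few partners of the apoptosome were called. Of 14 tested, 1 was called lower and 0 were called higher by limma, where 16.8% and 4.6% of all genes were. On adjusted p alone, and also at an unadjusted p under 0.05, 5 were lower (Septin4, Xiap, Birc2, Birc3 and Birc6) and 2 higher (Htra2 and Endog). Of all genes 28.3% were lower and 16.7% higher on adjusted p alone. The median log2 fold change was -0.00. The one called lower was Septin4, which has an isoform that binds inhibitors of apoptosis, and it fell by 1.74 (standard error 0.347, adjusted p = 0.00208, limma). With a pseudocount of 1 its log2 difference was -0.85, under the 2-fold limit, and no partner was called. Hspa8, a chaperone and the most abundant of the list, differed by 0.02 (95% confidence interval from -0.37 to 0.41, limma, adjusted p = 0.944).

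Around Casp8, 18 genes of the death receptor complexes were tested, with 6 calls of lower and 1 of higher expression in cKO. Their median log2 fold change was -0.69, against -0.11 over all genes, of which 16.8% were called lower and 4.6% higher. The count of 6 went down to 3 with a pseudocount of 1 or with quantile normalization, and the higher call was lost with a pseudocount of 1, with genes averaging at least 1 FPKM and with the low-Xist libraries alone. Tnfrsf1a, the main receptor for tumour necrosis factor, had the largest fall, by 2.84 (standard error 0.434, adjusted p = 0.000458, limma), from 31.3 ± 6.23 to 5.15 ± 3.23 FPKM (SD, n = 5 each). Tnfrsf1b, Mlkl, Zbp1, the ligand gene Tnfsf10 and Cflar were called lower as well, while Tnfrsf10b, a death receptor for that ligand, was called higher at low levels, from 0.434 ± 0.110 to 1.30 ± 0.448 FPKM (SD, n = 5 each, adjusted p = 0.00466, limma). The groups overlapped for Tnfrsf10b and for Zbp1, which was at 1.09 to 2.72 FPKM in WT and at 2.47 FPKM in library cKO 3. Ripk3, the necroptosis kinase that Casp8 can cut, differed by -0.08 (95% confidence interval from -0.31 to 0.14, limma, adjusted p = 0.534).

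In the platform that activates Casp2, the scaffold genes were higher in cKO on adjusted p. Pidd1, its scaffold, was at 7.97 ± 1.44 FPKM in WT and 12.1 ± 2.18 in cKO (SD, n = 5 each), a log2 difference of 0.60 (adjusted p = 0.00803, limma), and Ankrd26, which places Pidd1 at centrioles, differed by 0.30 (adjusted p = 0.0137, limma). Both were under the 2-fold limit, and with the Xist covariate or the low-Xist libraries alone both missed the threshold, with adjusted p up to 0.0884 for Pidd1 and 0.161 for Ankrd26 (limma). Cradd, the adaptor between Pidd1 and Casp2, differed by -0.23 (limma, adjusted p = 0.251). Among 12 targets of executioner caspases, Gsn, Xkr8 and Panx1 were called lower and 0 were called higher by limma (2 at an unadjusted p under 0.05). Of all genes 16.8% were called lower and 4.6% higher. The median log2 fold change of the targets was -0.11, the same as over all genes. Gsn, the actin-severing gelsolin, fell by 2.55 (standard error 0.375, adjusted p = 0.000371, limma), and Lmnb1, a nuclear lamin and the most abundant of these, differed by -0.59 (adjusted p = 0.000175, limma) with no overlap. Lmna, the other lamin of the list, went the opposite way, with means of 16.4 ± 6.11 FPKM in WT and 30.3 ± 2.58 in cKO (SD, n = 5 each) and a log2 difference of 0.95 (adjusted p = 0.00362, limma) just under the 2-fold limit, and 1 target was called higher with median-ratio scaling, with the Xist covariate, with the low-Xist libraries alone and without WT library 2 or 3.

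Markers of several blood lineages differed between the same libraries, where 16.8% of all genes tested were called lower and 4.6% higher. Of 14 monocyte and dendritic cell markers, 13 were called lower, and their summed level was 1011 to 1738 FPKM in WT and 13.3 to 305.4 in cKO, with the plasmacytoid marker Siglech at 0 in 3 cKO libraries. Of 10 neutrophil markers, 5 were called lower (Mpo, Elane, Prtn3, Ctsg and Cebpe), and the sum was 2737 to 3713 FPKM in WT and 147.8 to 2598 in cKO. The other 5, genes of later neutrophil stages, overlapped between the groups and had wide spreads in cKO, such as 10.3 ± 6.6 FPKM in WT and 82.3 ± 134 in cKO for Ngp (SD, n = 5 each, adjusted p = 0.318, limma). The highest cKO sum was that of library cKO 1, the library in which Casp2, Casp4 and Casp9 were highest. Erythroid markers went the other way, with 6 of 12 called higher and sums of 1244 to 2264 FPKM in WT and 3871 to 6615 in cKO. Of 8 progenitor markers 3 were called lower, with sums of 223.2 to 305.1 and 115.2 to 204 FPKM. Cd48, the most abundant of them, was at 77.7 ± 10.3 FPKM in WT and 82.4 ± 32.5 in cKO (SD, n = 5 each, adjusted p = 0.925, limma).

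Within the cKO group the monocyte and dendritic marker sum was 0.946% of the WT mean in library 4, 2.05% in library 2, 5.68% in library 1, 15.3% in library 3 and 21.7% in library 5. Casp1 followed the same order, at 5.3%, 11.7%, 19.4%, 20.9% and 26.7% of its WT mean. Casp1 was thus a larger part of its WT level than the marker sum in each cKO library. Casp8 was at 32.8%, 43.3%, 36.5%, 51.6% and 48.8% in that order and Gsdmd at 23.8%, 25.8%, 33.1%, 38.4% and 32.0%. The order was not particular to monocyte and dendritic markers. The erythroid sum ran in the reverse order, at 397%, 379%, 339%, 295% and 232% of its WT mean. Sums of B cell and of T and NK cell markers were also lowest in library 4 and next in library 2. Among the single markers Cd68, Cd74 and H2-Ab1 kept more than Casp1, with cKO means at 20.9%, 40.5% and 76.1% of WT. The other listed monocyte and dendritic markers kept less than Casp1, whose cKO mean was 16.8% of WT. The part of these lineage markers in the results of the members was not tested.

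**Figure D5:**
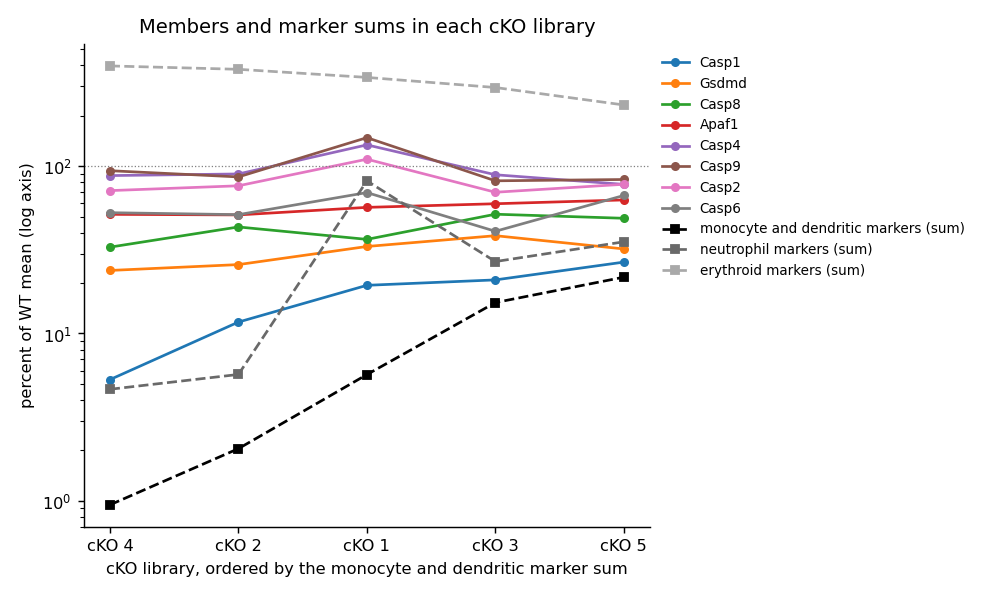
Level in each cKO library as a percent of the WT mean (vertical axis, logarithmic) for the 8 members (solid lines) and the summed markers of monocytes and dendritic cells, neutrophils and erythroid cells (dashed lines). Libraries are ordered by the monocyte and dendritic sum, from 0.946% to 21.7%, and Casp1 goes from 5.3% to 26.7% in the same order, while Casp4 stays between 77.8% and 134%. The erythroid sum goes down from 397% to 232% in that order.

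Among the remaining lists, 2 of 5 B cell, 5 of 9 T and NK cell, 6 of 6 megakaryocyte and 7 of 7 mast cell, basophil and eosinophil markers were called lower, and the other markers of B, T and NK cells did not pass the test. The share called lower over all genes was 16.8%. Of 6 stromal markers 4 were called lower and 1, Col1a2, higher, with an adjusted p at or above 0.05 in 9 of the 22 fits (up to 0.376, limma), and the stromal sums overlapped.

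Over the 10 libraries, after each group mean was taken out, some pairs of members varied together. Casp2, Casp4 and Casp9 had pairwise Pearson correlations of 0.87 to 0.92, which went down to 0.33 to 0.58 without library cKO 1. Apaf1 was then as close, at 0.51 with Casp9 and 0.55 with Casp2, so the high values rested on library cKO 1. Casp1 had correlations of 0.75 with Casp8 and 0.73 with Gsdmd (0.95 and 0.72 without that library), and Gsdmd had one of 0.81 with Apaf1 (0.82 without it). These are descriptions over 10 libraries that differ in depth and in the levels of lineage markers. By the same measure without the group means taken out, the gene most like Casp1 among 12353 searched was Septin6 (r = 0.998), that most like Gsdmd was Rab3d (0.995), that most like Casp8 was Actr3 (0.995) and that most like Apaf1 was Map3k3 (0.994). For Casp4 and Casp9, which did not pass the test, the closest genes were Brap (0.933) and Wdr26 (0.974). These correlations include the difference between the groups. With the group means taken out, the closest gene was another one for each of these members. It was Trf for Casp1 (0.995), Gm2058 for Gsdmd (0.954), S100a4 for Casp8 (0.977) and Fam117b for Apaf1 (0.987). For Casp4 and Casp9 it was Ugcg (0.972) and Zfyve27 (0.993).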

How the data were processed

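Lin- bone marrow RNA of 5 WT and 5 cKO mice was measured, with 1 library for each sample. Per the labels and the methods, the authors used cutadapt 1.9.1, HISAT2 2.0.1 and HTSeq 0.6.1 (build GRCm39) and deposited FPKM per gene, rounded to 2 decimals. The annotation, the gene lengths and any strand setting are not given in the sources used here. Whole multiples of 1 fragment in genes with a single transcript (exon length 300 to 2000 bp, at most 20 fragments, tolerance 0.2) gave depths of 15037500 to 18711100 fragments in WT and 13837000 to 17190700 in cKO, with 95.9% to 96.3% of values whole where chance gives 40%. A 1000 bp gene at 3 fragments was at 0.160 to 0.217 FPKM. Fragment numbers of named genes use annotated lengths and are approximate, and cover counting error only. No libraries of a group agreed within sampling noise (chi-square per degree of freedom at least 3.99). That the samples are separate mice follows from the design, and p-values measure the spread between them.

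FPKM are not counts, so limma 3.58.1 (R 4.3.3, trend) was run two-sided on log2(FPKM + 0.1) for genes averaging at least 0.1 FPKM, which understates changes of low genes, with Benjamini-Hochberg adjustment over 18742 genes. Exact permutation tests used scipy 1.17.1 (252 splits). The steps were tested on simulated data. The members, gene lists and tests were chosen with earlier results of these data known. Named genes were the members and all genes of lists of up to 5. Of longer lists they were the called genes with the largest rise and fall (averaging at least 1 FPKM) and the most abundant gene. Further genes, called or not, were named after their values were seen. Sequences and positions are from the GRCm39 genome with the GENCODE annotation. Alternatives were the pseudocount, the filter, 3 scalings, the trend left out, a block for the replicate number, a call on adjusted p alone, a covariate for Xist above 1 FPKM and each library left out. Libraries with low Xist and the ratios of gene pairs were added after seeing the data. One listed B cell marker was not found under its symbol. Some genes of the same family are not reported here.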

Additional observations from a re-analysis of the deposited data

Results flagged for a closer look

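In a group of 5 libraries, a value was singled out when the highest or lowest library stood apart from the others by Dixon's 95% limit. This happened in 7 of 100 groups examined, where chance gives about 5, and 4 of the 7 were in library cKO 1. Not every listed marker was among these groups, so the count does not cover all listed genes. By the same limit, markers outside them stood apart too, such as Mcpt8 in WT library 3 and Hbb-bs in cKO library 5. Rhag, Ermap, Ngp, S100a8 and S100a9 did so in library cKO 1. That library was the highest of its group for Casp4 (4.03 FPKM, the others 2.34 to 2.7), Casp9 (10.16 FPKM, the others 5.62 to 6.46), Casp2 (21.44 FPKM, the others 13.57 to 15.14) and Septin4 (1.2 FPKM, the others 0.21 to 0.39). Its neutrophil marker sum was 81.6% of the WT mean, against 4.64% to 35.3% in the other cKO libraries. It also differed in single markers of other lineages. Rhag was at 274.47 FPKM (the others 59.92 to 103.97) and Cd48 at 29.41 FPKM (the others 72.8 to 106.63). Its erythroid marker sum, 5647 FPKM, lay within the range of the others. The part of any cell type in its caspase levels was not tested.

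Ankrd26 was lowest in WT library 5 (8.24 FPKM, the others 9.13 to 9.26). Pjvk was at 0.05 FPKM in library cKO 3 and listed at 0 in the other cKO libraries. Prss34, a basophil protease, was at 328.66 FPKM in WT library 3 and at 671.4 to 722.61 FPKM in the other WT libraries.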

How the results depend on the processing

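Of the members, Casp1, Gsdmd and Casp8 were called lower in all 22 fits, with log2 fold changes of -2.89 to -2.21, -1.78 to -1.58 and -1.32 to -1.14, and 0 members were called higher in any of them. With adjusted p alone the count of members lower rose from 3 to 6. Over all genes, 862 higher and 3153 lower became 356 and 1486 with a pseudocount of 1, 462 and 1827 with genes averaging at least 1 FPKM, 3138 and 5300 with adjusted p alone, 1581 and 2245 with quantile normalization, and 536 and 2261 with the libraries of low Xist alone. Quantile normalization took the share of calls that were higher from 21.5% to 41.3% and the median of all genes from -0.11 to 0.10. Leaving out each library in turn gave 762 to 948 higher and 2892 to 3268 lower, and kept inflammatory minus apoptotic at -0.92 to -0.72. The causes were not tested.

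Among the genes for which the alternatives were run, signs changed only for those that were not called. With median-ratio scaling these were Casp4 (0.02), Casp9 (0.06), Cd48 (0.06) and Ripk3 (0.02). With quantile normalization they were Casp4 (0.36), Casp9 (0.17), Casp12 (0.33), Cradd (0.28), Gsdme (0.27) and Hspa8 (-0.05). Hspa8 also turned with an equal sum per library (-0.02) and with the Xist covariate or the low-Xist libraries (-0.03 each). With libraries left out, Casp9 ranged from -0.20 to 0.02, Cd48 from -0.17 to 0.29 and Hspa8 from -0.08 to 0.14.

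Same-numbered WT and cKO libraries had correlations of deviations of -0.0103 to 0.117, so the numbers were not taken to pair mice. With the replicate block 857 genes were called higher and 3107 lower, and 2 of the 5 libraries correlated best with their own number. Depth limited the lowest genes, such as Gsdma and Pjvk.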
